A study of Homo sapiens with 6 samples.

Results

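The EGF receptor family and its ligands were examined as 9 genes chosen by symbol, of 58336 gene identifiers counted in each library: the receptors EGFR, ERBB2 and ERBB3, the ligands HBEGF, NRG1, AREG, TGFA and EREG, and the feedback inhibitor ERRFI1. They were measured by RNA sequencing in 12Z, an epithelial cell line established from human endometriosis. The siBRG1 group has 3 libraries of cells given an siRNA to SMARCA4, the gene of the SWI/SNF remodelling ATPase BRG1, and the control group has 3 libraries of cells given a non-targeting siRNA. All cells received 50 nM siRNA, had their medium replaced at 24 h and again at 48 h, when serum was lowered from 10% to 0.5%, and were harvested at 72 h. The extraction protocol in the labels also speaks of a drug or vehicle period, and no label assigns either to a library. The 3 control libraries are marked as taken from an earlier deposit and the 3 siBRG1 libraries are not, so deposit and siRNA cannot be told apart for any difference below.

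ErbB receptors are membrane tyrosine kinases that signal as pairs. EGFR binds HB-EGF, amphiregulin, TGF-alpha and epiregulin, the products of HBEGF, AREG, TGFA and EREG. ERBB3, whose own kinase is weak, binds neuregulins such as the product of NRG1, and ERBB2 has no known ligand of its own and acts as a partner. The ligands are made as membrane precursors that ADAM proteases release, paired receptors switch on RAS-ERK and PI3K-AKT signalling, and ERRFI1 (also called MIG6) binds the receptor kinase domain and blocks it. In the uterus HB-EGF is best known, from the mouse, for its appearance where the embryo attaches.

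Of the 9 genes, 8 had enough counts to be tested. HBEGF and NRG1, the most abundant ligand transcripts per length in both groups, were lower in siBRG1 than in control by 4.81-fold and 3.16-fold. EGFR was lower by 1.26-fold, while ERBB2 and ERBB3 were 1.38-fold and 1.23-fold higher. ERRFI1, AREG and TGFA did not pass the test, and EREG was too low to test. The 5 that passed, 2 higher and 3 lower, were 62.5% of the 8 tested, against 72.6% of all 15830 genes tested that passed (36.1% higher and 36.5% lower), so the number of family members called was not above the background of this comparison. HBEGF and NRG1, 2 of the 8, changed by 2-fold or more, as did 21.6% of all genes tested. Tests were edgeR quasi-likelihood tests with Benjamini-Hochberg adjustment over all genes tested, a call is an adjusted p under 0.05, and a log2 change is the log2 of siBRG1 over control. CPM are counts of a gene per 1000000 counts of the TMM-normalised library total, and intervals of log2 changes are 1.96 SE to either side.

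Gene counts came to 12391161 to 13369692 per siBRG1 library and 40228678 to 49720320 per control library, so 3 counts stood for 0.219 to 0.235 CPM in siBRG1 and 0.0618 to 0.0765 CPM in control. Reads without a gene feature made up 3.85% to 4.20% of all reads in siBRG1 and 12.8% to 13.6% in control, and reads that mapped to several places 18.5% to 21.5% in siBRG1 and 9.57% to 10.0% in control. SMARCA4, the siRNA target, stood at 60.5, 78.9 and 50.6 CPM in siBRG1, against 244, 266 and 262 CPM in control, a log2 change of −2.03 (SE 0.161, adjusted p = 0.000267). Of 8 epithelial markers all were detected, with a summed level of 3488 to 3742 CPM in siBRG1 and 3942 to 4028 CPM in control, most of it KRT8, KRT18 and KRT19, and 4 of them rose and 2 fell. EPCAM, a defining epithelial surface marker, was low, at 1.61 CPM on average in siBRG1 and 0.251 CPM in control. All 7 stromal fibroblast markers were also detected, with a summed level of 4747 to 5070 CPM in siBRG1 and 2625 to 2811 CPM in control, and 6 of them rose and 1 fell, where 36.1% of all genes tested rose and 36.5% fell. The part of this shift in the results below was not tested. The 5 endothelial markers summed to 15.1 to 21.3 CPM in siBRG1 and 17.4 to 20.1 CPM in control, the 7 immune markers to 9.91 to 10.6 CPM in siBRG1 and 4.10 to 5.50 CPM in control, and CD3E and NKG7 had 0 counts in all 6 libraries. The labels do not tell whether replicates were grown separately, so each p-value reflects the spread among libraries alone, and that spread may be technical.

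The sequences upstream of the start sites are shown for the receptor that fell and the one that rose most, the ligand that fell most, a ligand near the detection limit and the inhibitor that did not pass, since these genes differ in how they moved. Of the 9 genes 7 matched an entry in RefSeq's promoters (build GRCh38.p14). The 250 bases before the first start site follow, each 5′ to 3′ on the strand of its gene. Capitals mark every match to the GC box GGGCGG, the AP-1 pattern TGANTCA, the TATA box TATAAA or the cAMP response element TGACGTCA. Both strands were searched. N is any base, so the AP-1 pattern is wider than the usual motif, which has C or G there.
EGFR (chr7:55018767-55019016, plus strand): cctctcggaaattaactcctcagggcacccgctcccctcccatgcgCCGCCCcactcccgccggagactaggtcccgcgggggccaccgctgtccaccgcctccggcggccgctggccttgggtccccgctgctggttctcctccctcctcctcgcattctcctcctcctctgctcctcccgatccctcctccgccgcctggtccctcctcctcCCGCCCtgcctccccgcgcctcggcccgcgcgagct
ERBB2 (chr17:39687844-39688093, plus strand): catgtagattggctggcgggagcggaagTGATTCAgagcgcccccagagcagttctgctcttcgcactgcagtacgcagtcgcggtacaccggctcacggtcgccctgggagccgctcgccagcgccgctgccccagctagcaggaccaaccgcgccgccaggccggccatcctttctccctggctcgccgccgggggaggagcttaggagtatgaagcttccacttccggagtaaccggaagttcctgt
HBEGF (chr5:140346604-140346853, minus strand): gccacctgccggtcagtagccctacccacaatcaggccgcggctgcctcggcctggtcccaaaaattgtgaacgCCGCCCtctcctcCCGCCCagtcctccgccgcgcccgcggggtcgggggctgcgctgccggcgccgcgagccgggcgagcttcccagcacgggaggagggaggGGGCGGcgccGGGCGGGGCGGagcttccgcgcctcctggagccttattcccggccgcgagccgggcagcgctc
AREG (chr4:74444886-74445135, plus strand): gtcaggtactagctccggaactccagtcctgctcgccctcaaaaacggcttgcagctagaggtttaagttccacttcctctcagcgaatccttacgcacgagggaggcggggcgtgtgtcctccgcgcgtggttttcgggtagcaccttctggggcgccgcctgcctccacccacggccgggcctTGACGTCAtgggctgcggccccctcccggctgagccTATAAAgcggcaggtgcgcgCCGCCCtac
ERRFI1 (chr1:8026310-8026559, minus strand): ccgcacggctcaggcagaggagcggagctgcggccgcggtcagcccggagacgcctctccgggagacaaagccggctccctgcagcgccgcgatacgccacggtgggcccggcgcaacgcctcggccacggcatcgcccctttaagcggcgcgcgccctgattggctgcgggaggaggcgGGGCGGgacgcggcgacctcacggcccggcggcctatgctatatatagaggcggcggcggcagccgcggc
HBEGF held 5 GC boxes, starting 176, 163, 73, 63 and 58 bases before the start site, of which the last pair overlap by 1 base. EGFR held 2 GC boxes and ERRFI1 held 1, and neither window had a match to the other motifs. ERBB2 had a single match to the AP-1 pattern, TGATTCA with T as its middle base, 222 bases before the start site. It had no GC box. AREG had a TATA box 29 bases, a cAMP response element 65 bases and a GC box 9 bases before its start site. Of 34943 promoter windows this long, 42.5% held a GC box, 6.59% the AP-1 pattern, 10.8% a TATA box and 1.63% the cAMP element. G and C made up 76.4% of the window of HBEGF, 75.2% of ERRFI1, 73.6% of EGFR, 65.6% of ERBB2 and 65.2% of AREG, against a median of 58% over all windows. EGFR has a second start site in RefSeq (window chr7:55109589-55109838), with 38.8% G and C, 2 AP-1 matches, 2 TATA boxes and no GC box. The gene models of ERBB2, HBEGF and AREG start at 39687914, 140346631 and 74445134, inside their windows. Part of each of these windows thus lies within the gene. No other start site of ERBB2 was examined. Windows of TGFA and EREG were searched too but are not shown. The first TGFA window, which lies within the gene model, held 3 GC boxes and was 75.6% G and C. A second TGFA window held none of the motifs. The EREG window held a TATA box and was 58% G and C. These letter matches describe the windows only.

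EGFR (ENSG00000146648.17, GRCh38 chromosome 7, 55019021 to 55211628), the receptor of HB-EGF and the other EGF-like ligands of the list, had the highest level of the family. It stood at 361, 330 and 343 CPM in the 3 siBRG1 libraries, against 415, 435 and 457 CPM in the 3 control libraries. All siBRG1 libraries were below all control libraries. The groups did not overlap for 5 of the 8 tested genes of the family (62.5%) and for 74.3% of all genes tested. The means were 345 ± 15.7 CPM in siBRG1 and 436 ± 20.7 CPM in control (SD, n = 3 each), a log2 change of −0.34 (SE 0.0412, adjusted p = 2.76e-08), smaller in size than the median of 0.48 over all genes tested. Removing the GC and length trends from each library gave −0.15 (adjusted p = 0.000922). In bulk RNA, fewer cells that express a gene and less RNA per cell cannot be told apart.

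ERBB2 (ENSG00000141736.13, chromosome 17, 39687914 to 39730426), the partner receptor without a ligand, stood at 134, 137 and 131 CPM in siBRG1, against 96.3, 95.8 and 98.9 CPM in control. The groups lay apart, and libraries of a group differed from each other by far less than the groups did. Means were 134 ± 3.08 CPM in siBRG1 and 97.0 ± 1.65 CPM in control (SD, n = 3 each), a log2 change of 0.47 (SE 0.0427, adjusted p = 8.56e-11). ERBB3 (ENSG00000065361.15, chromosome 12, 56076799 to 56103505), the neuregulin receptor, was much lower in level, at 24.3, 23.8 and 20.6 CPM in siBRG1 and 17.2, 19.1 and 19.3 CPM in control. Its lowest siBRG1 library stood above its highest control library by a small margin. The log2 fold change was 0.31 (SE 0.0845, adjusted p = 0.00198), and the authors' deposited table gives 0.28 (its adjusted p = 0.00267).

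**Figure D1:**
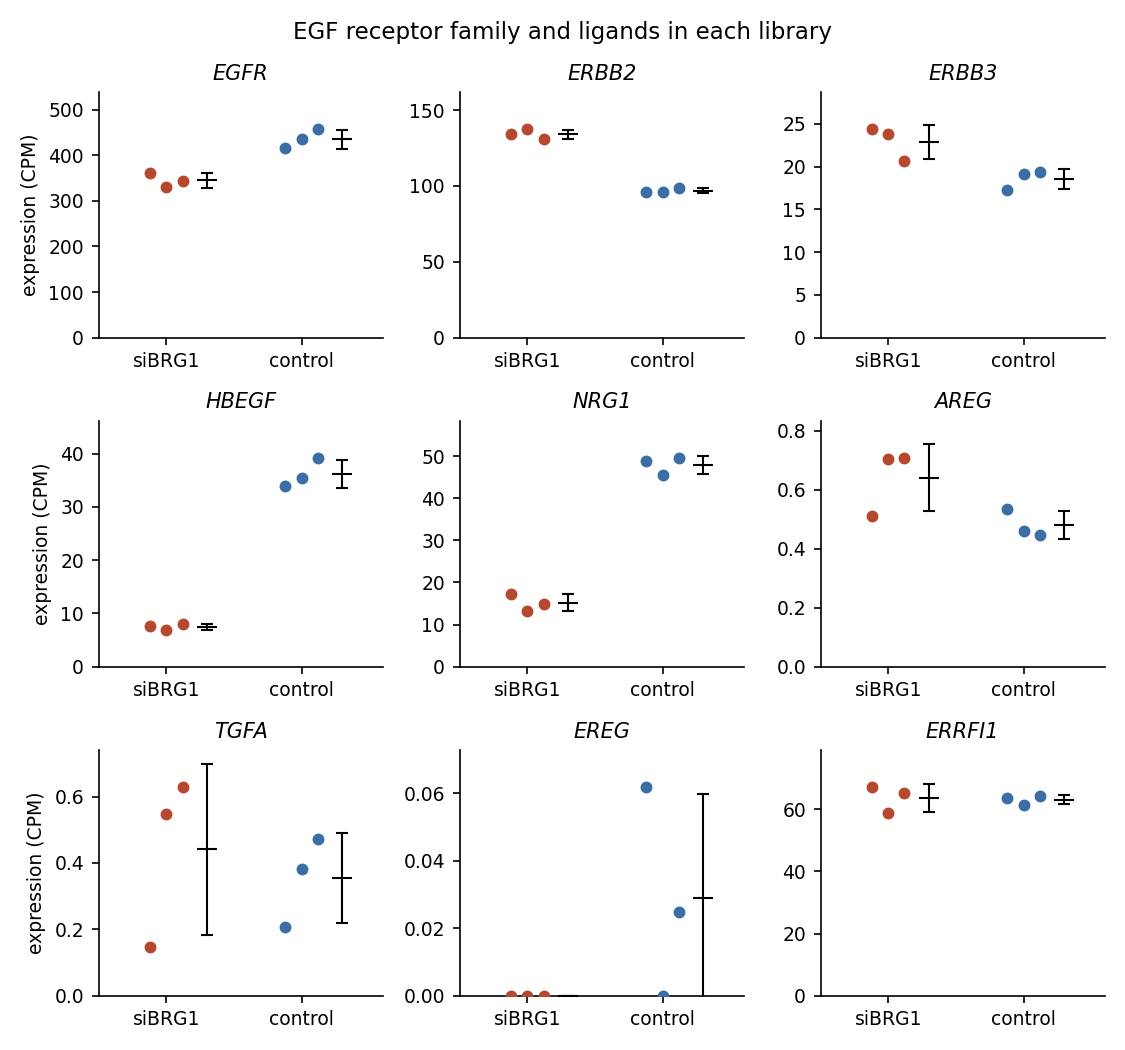
Expression in CPM (vertical axes, linear, a scale of its own for each gene) of the 9 genes in each siBRG1 and control library (points), with the mean and SD of each group (n = 3) beside the points. HBEGF and NRG1 show the widest gaps, at 6.90 to 8.0 CPM in siBRG1 against 34.0 to 39.1 CPM in control for HBEGF, while the points of ERRFI1, AREG and TGFA overlap.

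HBEGF (ENSG00000113070.7, chromosome 5, 140332843 to 140346631), whose product binds EGFR and ERBB4, had the largest change of the 8 tested genes. Its level was 7.65, 6.90 and 8.0 CPM in siBRG1 (105, 88 and 102 counts), against 34.0, 35.4 and 39.1 CPM in control (1649, 1390 and 1571 counts). The groups lay far apart, with little spread inside either. Means were 7.52 ± 0.562 CPM in siBRG1 and 36.2 ± 2.63 CPM in control (SD, n = 3 each), a log2 change of −2.26 (SE 0.0946, adjusted p = 2.26e-18) that ranged from −2.36 to −2.20 over the 16 alternative settings run. The authors' deposited table gives −2.29 (its SE 0.107).

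NRG1 (ENSG00000157168.18, chromosome 8, 31639386 to 32767959), a ligand of ERBB3 and ERBB4, stood at 17.3, 13.3 and 15.0 CPM in siBRG1, against 49.0, 45.5 and 49.5 CPM in control. All siBRG1 libraries again lay far below all control libraries. Means were 15.2 ± 1.98 CPM in siBRG1 and 48.0 ± 2.17 CPM in control (SD, n = 3 each), a log2 change of −1.66 (SE 0.0792, adjusted p = 5.14e-17), ranging from −1.76 to −1.43 over the 16 alternative settings. Counts per gene do not separate the many known isoforms of NRG1, which start from different promoters. NRG1 thus fell where its receptor ERBB3 rose, and HBEGF fell along with its receptor EGFR.

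The other ligands were close to the detection limit. AREG, the amphiregulin gene (ENSG00000109321.10, chromosome 4, 74445134 to 74455009), had 7, 9 and 9 counts in siBRG1 (0.510, 0.706 and 0.706 CPM) and 26, 18 and 18 counts in control (0.535, 0.459 and 0.448 CPM). The ranges overlap, and the log2 fold change of 0.40 had an interval of −0.43 to 1.23 (adjusted p = 0.406). TGFA, the TGF-alpha gene (ENSG00000163235.15, chromosome 2, 70447280 to 70554193), had 2, 7 and 8 counts in siBRG1 (0.146, 0.549 and 0.627 CPM) and 10, 15 and 19 counts in control (0.206, 0.382 and 0.473 CPM). Its log2 fold change of 0.32 had an interval of −0.75 to 1.40 (adjusted p = 0.609), and leaving out siBRG1 replicate 3 gave −0.026. Both intervals take in a 2-fold rise and neither takes in a 2-fold fall. EREG, the epiregulin gene (ENSG00000124882.3, chromosome 4, 74365143 to 74388751), had 0 counts in every siBRG1 library, which allows up to 0.0765 CPM (3 counts over the group), and 3, 0 and 1 counts in the control libraries. No fold is given for it, since its control level of 0.0312 CPM (4 counts over the group) lies below what 0 counts allow in siBRG1. With no count filter it was tested and did not pass (adjusted p = 0.398).

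ERRFI1 (ENSG00000116285.12, chromosome 1, 8004404 to 8026308), the inhibitor of the receptor kinases, stood at 67, 58.7 and 65.2 CPM in siBRG1, against 63.8, 61.4 and 64.2 CPM in control. The siBRG1 libraries spanned the whole range of the control libraries. Its log2 fold change of 0.01 had an interval of −0.09 to 0.12 (SE 0.0545, adjusted p = 0.842), and it took either sign over the alternative settings, from −0.03 to 0.08, without a call in any of the 16.

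**Figure D2:**
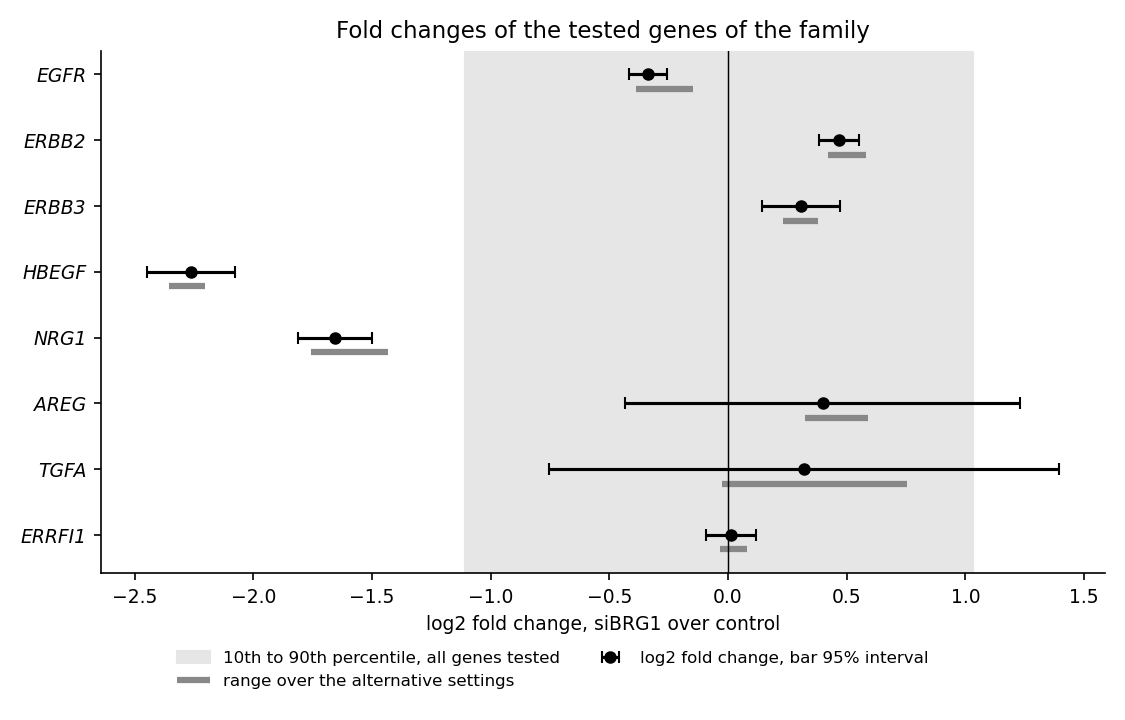
Log2 fold change of siBRG1 over control (horizontal axis) of the 8 tested genes, with points at the estimate, black bars of 1.96 SE and grey bars for the range over the alternative settings. The shaded band holds the 10th to 90th percentile of all 15830 genes tested (−1.11 to 1.03): HBEGF and NRG1 lie below it, at −2.26 and −1.66, and the other estimates lie inside it.

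Levels of different genes were compared as CPM per kilobase of annotated exon, a scale on which the union of all exons of a gene counts as its length. In siBRG1 the order ran from EGFR (27.5 ± 1.26) through ERRFI1 (15.2 ± 1.04), ERBB2 (13.0 ± 0.298), ERBB3 (2.53 ± 0.221), HBEGF (2.49 ± 0.186), NRG1 (1.34 ± 0.175), AREG (0.389 ± 0.0686) and TGFA (0.0888 ± 0.0521) to EREG at 0 (SD, n = 3). In control it ran from EGFR (34.8 ± 1.66) through ERRFI1 (15.1 ± 0.361), HBEGF (12.0 ± 0.872), ERBB2 (9.40 ± 0.160), NRG1 (4.23 ± 0.192), ERBB3 (2.05 ± 0.128), AREG (0.292 ± 0.0290) and TGFA (0.0712 ± 0.0273) to EREG. Among neighbours in these orders, ranges of single libraries overlapped only for ERBB3 and HBEGF in siBRG1. On this scale ligands changed places with receptors. HBEGF stood above ERBB2 in every control library and below it in every siBRG1 library. NRG1 stood above ERBB3 in control and below it in siBRG1. In CPM, without division by length, HBEGF stayed below ERBB2 in both groups, at 36.2 against 97.0 in control and 7.52 against 134 in siBRG1. NRG1 and ERBB3 changed places in CPM too, at 48.0 against 18.6 in control and 15.2 against 22.9 in siBRG1. HBEGF stood below NRG1 in CPM in both groups.

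Summed over the 5 ligands, the level per kilobase was 4.40, 4.0 and 4.53 in siBRG1, against 16, 16.1 and 17.7 in control. The siBRG1 libraries lay close together, far below all control libraries. Summed over the 3 receptors it was 44.6, 42.3 and 42.4 in siBRG1, against 44.4, 46.1 and 48.2 in control, where the ranges overlap (exact two-sided permutation p = 0.2). The log2 ratio of summed ligands to summed receptors averaged −3.32 ± 0.0893 in siBRG1 and −1.48 ± 0.0359 in control (SD, n = 3 each; exact two-sided permutation p = 0.1, the smallest that 3 libraries against 3 allow). In linear terms the ligand sum was 0.0999 of the receptor sum in siBRG1 and 0.358 of it in control.

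EGFR held a smaller share of the receptor sum in every siBRG1 library than in any control library, and ERBB2 and ERBB3 held larger ones. EGFR made up 63.9 ± 1.37% of the summed receptor level per length in siBRG1 and 75.2 ± 0.504% in control (SD, n = 3 each). ERBB2 made up 30.2 ± 1.15% in siBRG1 and 20.3 ± 0.604% in control, and ERBB3 5.88 ± 0.437% in siBRG1 and 4.44 ± 0.142% in control. The log2 ratio of ERBB2 to EGFR averaged −1.08 ± 0.0850 in siBRG1 and −1.89 ± 0.0521 in control. The difference was 0.81 (exact permutation test, two-sided, p = 0.1, again the smallest possible). With GC and length trends removed from each library, the log2 changes lay closer together, at −0.15 for EGFR and 0.42 for ERBB2. The main fit gave −0.34 for EGFR and 0.47 for ERBB2. Within the ligands HBEGF made up 57.8 ± 0.715% in siBRG1 and 72.2 ± 1.46% in control, and NRG1 31.1 ± 3.09% in siBRG1 and 25.6 ± 1.33% in control. AREG made up 9.07 ± 1.86% in siBRG1 and 1.77 ± 0.253% in control. Each of these shares gave an exact two-sided permutation p of 0.1. The larger share of AREG in siBRG1 rests on 25 counts over the 3 libraries and on a smaller ligand total, and its own level did not pass the test.

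**Figure D3:**
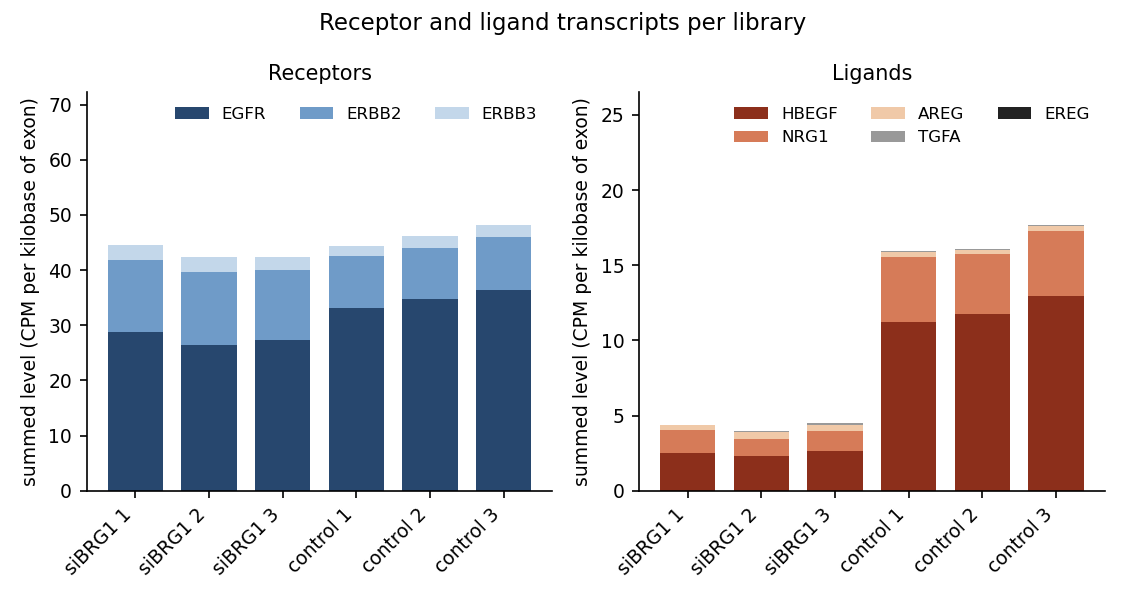
Level per library in CPM per kilobase of exon (vertical axes, starting at 0, scales differ), stacked by gene, for the receptors (left) and the ligands (right), siBRG1 libraries left of control libraries. The receptor stacks reach 42.3 to 44.6 in siBRG1 and 44.4 to 48.2 in control, and the ligand stacks 4.0 to 4.53 in siBRG1 and 16 to 17.7 in control.

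The genes of the family lie on 8 chromosomes, with AREG and EREG side by side on chromosome 4. Their nearest tested neighbour, EPGN, encodes epigen, a further EGFR ligand of the same cluster. EPGN, singled out after its values were seen, fell to 0.146, 0.0784 and 0.392 CPM in siBRG1, against 1.59, 1.15 and 1.14 CPM in control, a log2 change of −2.65 (SE 0.491, adjusted p = 2.40e-05). It rests on 8 counts in siBRG1 against 168 in control, passed the count filter only through the control libraries, and had a log2 fold change of −3.48 without siBRG1 replicate 3. GRB7, an adaptor that binds ERBB2 and lies 7500 bases from it, rose by 0.43 on the log2 scale (SE 0.105; adjusted p = 0.000682), beside 0.47 for ERBB2. TCAP, on the other side of ERBB2, did not pass and had a log2 change of −0.47 (adjusted p = 0.142). Genes that overlap a gene of the family were not taken as neighbours. PGAP3 and MIEN1, which overlap ERBB2, rose by 1.58 and 0.34 on the log2 scale (adjusted p = 2.81e-14 and 0.000139). PA2G4, which encodes the ERBB3-binding protein EBP1 and lies 813 bases from ERBB3, fell by 0.67 on the log2 scale (SE 0.0414, adjusted p = 1.48e-14), while ERBB3 rose, and RPS26 on its other side did not pass, with a log2 change of 0.06 (adjusted p = 0.214). Of the neighbours of EGFR, LANCL2 fell by 0.52 on the log2 scale (adjusted p = 1.57e-08) and SEC61G did not pass, with a log2 change of 0.02 (adjusted p = 0.687). Next to HBEGF, PFDN1 stood at 97.4 ± 4.11 CPM in siBRG1 and 102 ± 2.77 CPM in control and did not pass, at a log2 change of −0.07 (adjusted p = 0.192), and ANKHD1 fell by 0.73 on the log2 scale (adjusted p = 0.000253). Both neighbours of ERRFI1 rose on the log2 scale, PARK7 by 0.57 (adjusted p = 1.07e-13) and SLC45A1 by 1.11 (adjusted p = 0.00101). Beside NRG1, FUT10 fell by 0.26 on the log2 scale (adjusted p = 0.0310) and WRN did not pass (0.11, adjusted p = 0.0722). FAM136A and ADD2, beside TGFA, and PARM1, beside AREG, did not pass either.

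By distance of centred log2 CPM over the 6 libraries, among 10735 protein-coding genes, the genes with the pattern most like that of EGFR were NUP188, ANKRD52 and DNAJC13 (distances of 0.0220, 0.0420 and 0.0476). NUP188, a nuclear pore gene, stood at 134 ± 5.16 CPM in siBRG1 and 169 ± 8.41 CPM in control (SD, n = 3 each), with a log2 fold change of −0.33 beside −0.34 for EGFR. The likeness describes these 6 libraries only.

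The ErbB ligands and receptors outside the 9 genes were low or silent. Of 7 such genes, ERBB4 had 0 counts in all 6 libraries, and BTC, NRG3, NRG4 and EGF were too low to test, with at most 28 counts over a group. EPGN fell, as above, and NRG2 did not pass, at a log2 change of 0.67 (adjusted p = 0.149).

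Genes that act on the release of ligands changed in both directions. This list and those that follow were chosen with earlier results of these data known, so their counts are descriptive only. Of 12 proteases, cofactors and inhibitors of shedding, 11 were tested and all 11 passed, 7 higher and 4 lower (median log2 fold change 0.27, against −0.01 over all genes tested). Of all genes tested 72.6% passed, 36.1% higher and 36.5% lower. RHBDF2, which encodes iRhom2, a partner that carries ADAM17 to the cell surface, rose to 26.2 ± 2.72 CPM in siBRG1, against 11.2 ± 0.561 CPM in control, a log2 change of 1.23 (SE 0.0904, adjusted p = 7.54e-13). RHBDL2, a rhomboid protease, rose by 0.69 on the log2 scale (adjusted p = 0.00597), a call lost without siBRG1 replicate 2 (0.46, adjusted p = 0.0916) and with unstranded counts (0.48, adjusted p = 0.0622). TIMP3, an inhibitor of ADAM17, fell to 72.6 ± 12.3 CPM in siBRG1, against 150 ± 8.19 CPM in control, a log2 change of −1.04 (SE 0.108, adjusted p = 5.81e-05), and ADAM12 fell by 0.49 on the log2 scale. ADAM17 itself, the main protease of HB-EGF and amphiregulin, picked for mention with its value known, stood at 140 ± 6.55 CPM in siBRG1 and 106 ± 2.86 CPM in control, a log2 change of 0.40 (SE 0.0445, adjusted p = 3.98e-09). The counts moved to 4 higher without siBRG1 replicate 2, and to 2 lower with unstranded counts or with GC and length trends removed.

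Most genes listed for receptor attenuation and endocytosis fell, in a list chosen with earlier results of these data known. The list does not separate genes by the direction of their effect on the receptors. Of 18 tested, 14 (among them SOCS4 and SOCS5) fell and 3 (LRIG1, LRIG3 and RNF41) rose, and SH3KBP1 did not pass (median log2 fold change −0.30), against 36.5% of all genes tested that fell. SOCS4 and SOCS5, which bind EGFR and target it for breakdown, were lower, by log2 changes of −0.85 and −0.79 (SE 0.0529 and 0.0557). SOCS4 stood at 44.5 ± 1.28 CPM in siBRG1 and 80.4 ± 1.82 CPM in control (adjusted p = 1.84e-14). LRIG1, a membrane protein that binds ErbB receptors and lowers their level, went the other way, at 63.5 ± 6.03 CPM in siBRG1 and 29.9 ± 0.633 CPM in control, a log2 change of 1.09 (SE 0.0636, adjusted p = 4.90e-15). LRIG3, its relative, rose by 0.45 on the log2 scale (adjusted p = 5.74e-05). With the replicate number as a block and GC and length trends removed, 9 rather than 14 genes fell.

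Of 30 adaptor, RAS-ERK and PI3K-AKT genes, 14 fell, 10 rose and 6 did not pass (median log2 fold change −0.12). The 80% that passed stand near the 72.6% of all genes tested, of which 36.1% rose and 36.5% fell. PTPN11, which encodes SHP2, a phosphatase that passes signals from the receptors to RAS, fell to 326 ± 16.6 CPM in siBRG1, against 675 ± 11.1 CPM in control, a log2 change of −1.05 (SE 0.0395, adjusted p = 1.82e-19). PIK3R1, a regulatory subunit of PI3-kinase, fell by 1.14 on the log2 scale (adjusted p = 5.30e-13). MAPK3, which encodes ERK1, stood at 63.6 ± 1.16 CPM in siBRG1 and 31.7 ± 0.709 CPM in control, a log2 change of 1.00 (SE 0.0562, adjusted p = 1.84e-15), and GAB2, an adaptor, rose by 0.83 on the log2 scale (adjusted p = 5.80e-09).

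Among 20 genes known to respond to ERK, 18 were tested, of which 11 rose and 5 fell (median log2 fold change 0.47), while EPHA2 and SPRED3 did not pass. Over all genes tested the shares were 36.1% that rose and 36.5% that fell. The list was chosen with earlier results known, so the contrast is descriptive only. DUSP6, a phosphatase that switches off ERK, stood at 40.6 ± 2.33 CPM in siBRG1 and 14.9 ± 1.89 CPM in control, a log2 change of 1.45 (SE 0.0834, adjusted p = 3.42e-15). ETV4, an ETS factor, stood at 45.8 ± 3.20 CPM in siBRG1 and 20.1 ± 1.41 CPM in control, at a log2 change of 1.19 (adjusted p = 8.19e-15). SPRY1, an inhibitor of receptor signalling singled out after its value was seen, had the largest rise of the list, at 4.58 ± 0.864 CPM in siBRG1 and 0.650 ± 0.0794 CPM in control, a log2 change of 2.80 (SE 0.251, adjusted p = 5.98e-11). FOSL1, an AP-1 subunit, fell to 31.2 ± 2.03 CPM in siBRG1, against 146 ± 8.50 CPM in control, a log2 change of −2.23 (SE 0.0586, adjusted p = 2.85e-23), and MYC fell by 0.44 on the log2 scale (adjusted p = 2.72e-08).

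**Figure D4:**
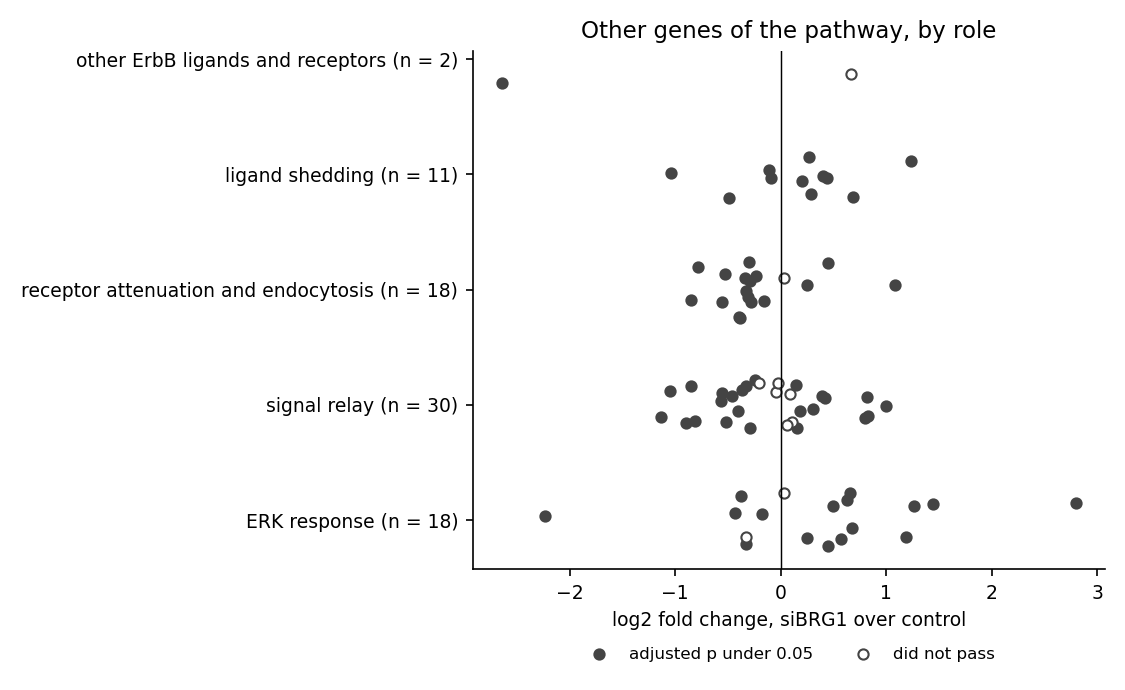
Log2 fold change of siBRG1 over control (horizontal axis) of the tested genes of each pathway list (rows, with the number tested; vertical scatter within a row has no meaning), filled where the adjusted p was under 0.05 and open where it was not. Genes of attenuation and endocytosis lie mostly left of 0, with LRIG1 at 1.09, and ERK response genes mostly right of it, with FOSL1 at −2.23.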

How the data were processed

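RNA of 3 siBRG1 and 3 control libraries was compared. Per the labels, 500 ng of total RNA went into strand-specific mRNA libraries. For each library the authors deposited raw gene counts as STAR lays them out (1 unstranded and 2 stranded columns). Per the submitters' processing notes cutadapt, Trim Galore, FastQC, STAR and DESeq2 were used on build GRCh38.p12, without versions; the annotation is not given in sources used here. The authors' deposited table of the series adds a mean signal over libraries (not used), log2 fold changes with errors, p-values with adjusted forms, and a test score and weight (not used), per the file headers.

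The last stranded column, larger in every library, was used. Of 58336 identifiers 58216 matched GENCODE 29 without version. Library sizes leave out reads not assigned to a gene and the counts of genes that failed the count filter. On average 1.84% of reads were unmapped, 20.3% mapped to several places, 3.97% hit no feature and 3.11% were ambiguous in siBRG1, against 1.64%, 9.81%, 13.3% and 4.16% in control. edgeR 4.0.16 in R 4.3.3 was run with TMM, filterByExpr and robust quasi-likelihood fits on the group, without covariates. The SE is the absolute log2 fold change over the square root of F. DESeq2 1.42.0 was an alternative. Gene positions and exon lengths are from GENCODE 29. The script was tested on simulated data. Replicates were kept apart, since their counts differed beyond sampling noise (chi-square over degrees of freedom 2.72 to 4.83). Floors of 3 counts cover counting error only.

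The genes and lists were chosen with earlier results of these data known. Named pathway genes were, per list, up to 2 higher and 2 lower called genes with the largest change, at least 50 counts on average and groups whose CPM did not overlap; genes like EGFR were the 3 nearest protein-coding genes with a mean of at least 100 counts. Others are marked in the text.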

Additional observations from a re-analysis of the deposited data

Results flagged for a closer look

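Antisense reads at ERBB2 stood out in data outside the main measurement. Counts on the strand opposite to ERBB2 came to 331, 309 and 288 in siBRG1 and 591, 649 and 598 in control, or 24.2 ± 0.872 antisense CPM (relative to gene counts) in siBRG1 and 14.1 ± 2.13 antisense CPM in control (SD, n = 3 each), with no overlap of the groups. As a share of both strands at the gene they were 15.0 ± 0.273% in siBRG1 and 13.0 ± 1.76% in control. These shares overlapped between the groups, at 14.69% to 15.24% in siBRG1 and 11.21% to 14.73% in control. In GENCODE 29, 194 exon bases of ERBB2 are shared with PGAP3 and 571 with MIEN1, both on the opposite strand. PGAP3 rose to 20.3 ± 0.950 CPM in siBRG1, against 6.81 ± 0.328 CPM in control, a log2 change of 1.58 (SE 0.0997, adjusted p = 2.81e-14 by edgeR), and MIEN1 stood at 45.2 ± 5.17 CPM in siBRG1 and 35.7 ± 2.96 CPM in control, a log2 change of 0.34 (SE 0.0730, adjusted p = 0.000139 by edgeR). The part of these genes in the antisense counts was not tested. The sense counts of ERBB2 used above do not include them.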

How the results depend on the processing

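The 5 calls and the directions of EGFR, ERBB2, ERBB3, HBEGF and NRG1 held under all 16 alternative settings, which left 2 genes of the family higher and 3 lower each time. The smallest sizes were −0.15 for EGFR, 0.42 for ERBB2, 0.23 for ERBB3 (control libraries thinned to the siBRG1 depth, adjusted p = 0.0359), −2.20 for HBEGF and −1.43 for NRG1. ERRFI1, never called, was −0.024 to 0.070 with a library left out, below 0 without control replicate 2, siBRG1 replicate 1 or siBRG1 replicate 3, −0.00442 with the DESeq2 test, −0.00432 with DESeq2 size factors, −0.032 with no count filter, and −0.029 with protein-coding genes alone, while TGFA was −0.026 to 0.76, lowest without siBRG1 replicate 3. Over all genes 5131 to 5680 were higher and 5160 to 6012 lower with a library left out, against 5716 and 5782 with all 6. With no count filter the median log2 fold change over 30426 genes was −0.30 and EGFR stood at −0.38, with 5544 genes higher and 6997 lower. The count of other ErbB ligands lower, 1 in the main analysis, was 0 with at least 50 counts in 3 libraries or control libraries thinned, where none was tested. Shedding genes lower numbered 2 with GC and length trends removed, with or without the replicate block, and with unstranded counts, and those higher 4 to 7 with a library left out. Attenuation genes lower numbered 10 with GC and length trends removed, 9 with the replicate block added to that, and 14 with the block alone. The log2 difference of the ligand to receptor ratio was −1.70 without division by exon length, against −1.84. The replicate numbers did not pair the libraries (correlation of deviations −0.00936, 0.0191 and 0.00858 for numbers 1, 2 and 3), and the replicate block alone left 5528 genes higher and 5666 lower and no family call changed. The ratio of AREG to EREG could not be computed, since EREG had 0 counts in 4 of 6 libraries. Depth limits AREG, TGFA, EREG and EPGN; the causes of these shifts were not tested.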
